A study of Mus musculus with 2 samples.

Results

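Splicing factors and nuclear RNA-binding proteins were taken as the genes of 12 symbol families, namely Srsf, Hnrnp, Snrp, U2af, Sf3a with Sf3b, Prpf, Rbm, Celf, Elavl, Rbfox, Esrp and Ptbp. The symbol pattern found 125 of the 17245 genes listed, and 113 of them reached 1 FPKM (reads scaled for gene length and per 1000000 reads) in at least 1 library. RNA came from mouse pancreatic islets, which hold mostly insulin-secreting β-cells besides other hormone-producing types. There were 2 genotypes with 1 library each, a KO named cGASβKO in the study design (cGAS is a sensor of DNA in the cytosol, and β stands for the β-cell) and wild type (WT). Islets of both genotypes were freed with collagenase, selected under a microscope and cultured in medium with serum. The sources used here do not give strain, sex, age, the number of animals pooled, the Cre line or the deleted exon. There was no replicate, so no difference below has a replicate check and no p-value was computed. Ratios and "fold" values with an interval are of plain FPKM, and intervals in brackets are exact 95% Clopper-Pearson intervals for the ratio of reads between these libraries and cover counting error only.

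Introns are removed from precursor RNA by the spliceosome, which is built on each intron from small nuclear ribonucleoproteins (snRNPs) and many other proteins. SR proteins bind exons through RNA-recognition motifs and recruit the spliceosome through domains rich in arginine and serine. Proteins of hnRNP particles coat nascent RNA, and several of them oppose SR proteins at the same exons. Many genes of both classes limit their own output through alternative exons or retained introns that stop the transcript from making protein. Regulators of the Celf, Elavl, Rbfox, Esrp and Ptbp families set cell-type programmes of exon choice, and islet cells share several neuronal ones.

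Cgas RNA was at 0.521 FPKM in KO-labelled islets, against 0.205 FPKM in WT, a ratio of 2.55 (1.35 to 4.98). Because the targeted gene was not lower, the wording "library labelled KO" or "KO-labelled islets" is kept, and a gene total does not show which exons or cells the reads came from. The values gave totals of 14537660 reads in KO-labelled islets, against 19097001 reads in the WT library. Differences are log2((KO + 1)/(WT + 1)) of FPKM, a scale that understates the change of low genes and on which the 2-fold and 1.5-fold limits were set. With a floor of 1 FPKM in at least 1 library, 12428 genes counted as expressed. Their median difference was 0.077, with quartiles of -0.35 and 0.51. Of the cell-type markers, all 8 expressed acinar genes lay at least 2-fold below WT, and in the library labelled KO 10 acinar markers summed to 89.9 FPKM, against 1649 FPKM in WT. The 8 endothelial markers summed to 579.9 FPKM in KO-labelled islets, against 255.8 FPKM in WT, and the 8 macrophage and dendritic-cell markers to 313.6 FPKM in KO-labelled islets, against 132.4 FPKM in WT. The 10 β-cell markers summed to 437084 FPKM in KO-labelled islets, against 396314 FPKM in WT, with none at 0 in either. The ratio of these sums was 1.10, near the 1.11 for the summed FPKM of all listed genes. Of these β-cell genes 4 were lower by 2-fold or more, and 1 was higher by as much. Their median difference was -0.68, with 7 of the 10 below 0. One acinar marker was at 0 in the library labelled KO. In whole islets, fewer cells of a type and less RNA per cell cannot be told apart, and the part of cell composition in the differences below was not tested.

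Among the 113 expressed members, 4 were at least 2-fold higher in the library labelled KO, or 3.54% of them, against 6.98% of all expressed genes. None was at least 2-fold lower, against 3.88% of all expressed genes. At a limit of 1.5-fold, 21 members (18.6%) were higher, against 21.4% of all expressed genes, and 14 members (12.4%) were lower, against 13.5%. The median of the members was 0.022, and 62 of 113 lay above 0, which was 54.9% against 54.4% of all expressed genes. These shares were near those of all genes, and they moved with scaling. Besides the deposited values, 3 other scalings were tried, 2 of them sum scalings (each library to 1000000, and equal sums without the 20 highest genes) and 1 on the median ratio. Under both sum scalings 12 members were past 1.5-fold on the higher side and 21 on the lower, and the median of the members was below 0 under all 3, so what follows describes families and single members.

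**Figure D1:**
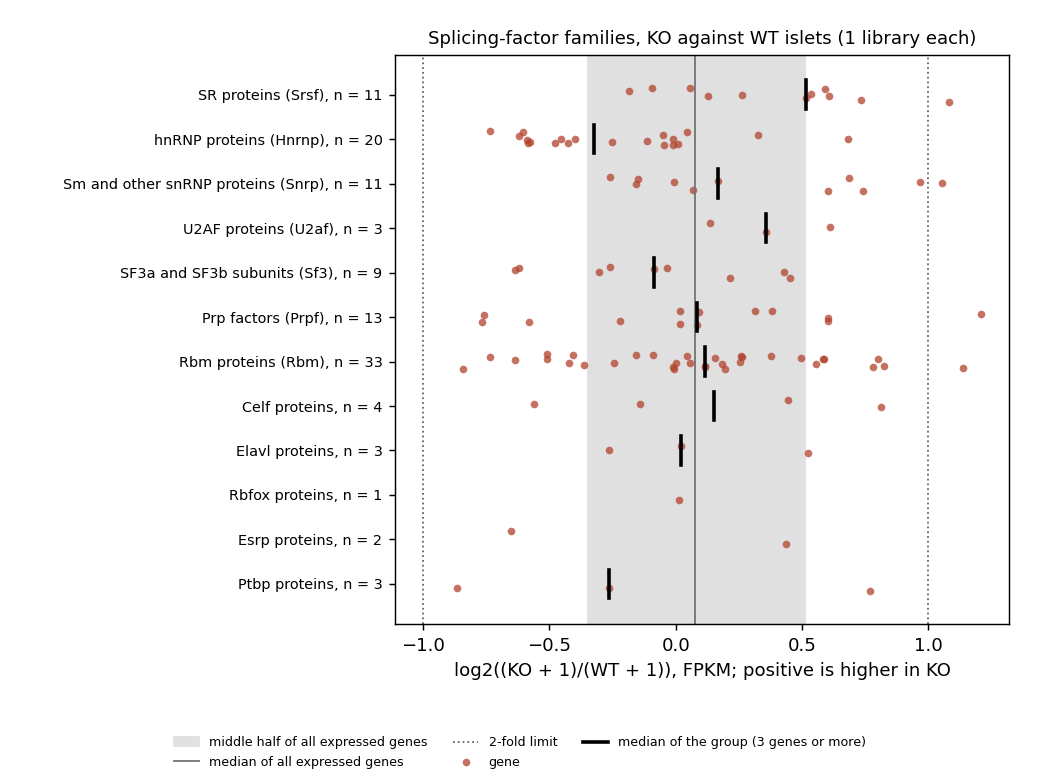
Difference between the library labelled KO and the WT library, log2((KO + 1)/(WT + 1)) of FPKM, for each expressed member (points) in 12 families, with black bars for the medians of families with 3 or more genes. The grey band spans the quartiles of all expressed genes, -0.35 to 0.51. The SR proteins lie mostly to the right of the median gene, with a family median of 0.51, and the hnRNP proteins mostly to the left, with a family median of -0.33.

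The 4 members past the 2-fold limit came from different families. Prpf40b, a relative of a yeast U1 snRNP protein, lies at chr15:99295087-99317018. Rbm5, an RNA-binding protein of early spliceosomes, lies at chr9:107740371-107770996. Srsf7, an SR protein with a zinc knuckle, lies at chr17:80200080-80207307, and Snrpd2, a subunit of the Sm ring, lies at chr7:19149722-19153542. These are whole genes in GENCODE M21 on GRCm38, and none shares an exon base with another annotated gene. The promoters of these genes are shown because they are the members with the largest differences, followed by that of Hnrnpk, the lowest hnRNP gene. Each runs from 250 bases before to 50 bases after the most upstream start in RefSeq on GRCm38.p6, 5′ to 3′ on the strand of the gene, and capitals mark every match to one of 7 motifs. The motifs, searched on both strands, were the C/EBP consensus TTGCNNAA, the CCAAT box CCAAT, the GC box GGGCGG, the ETS core CCGGAAG, the NRF1 core GCATGCGC, the E-box CACGTG and the TATA box TATAAA.
Prpf40b, chr15:99294991-99295290, plus strand: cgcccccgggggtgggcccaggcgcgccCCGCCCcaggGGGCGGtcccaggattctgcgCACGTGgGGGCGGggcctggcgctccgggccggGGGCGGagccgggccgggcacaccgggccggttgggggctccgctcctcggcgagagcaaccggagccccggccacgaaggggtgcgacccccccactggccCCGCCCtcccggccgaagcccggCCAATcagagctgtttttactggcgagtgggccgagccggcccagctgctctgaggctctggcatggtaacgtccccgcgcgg
Rbm5, chr9:107770953-107771252, minus strand: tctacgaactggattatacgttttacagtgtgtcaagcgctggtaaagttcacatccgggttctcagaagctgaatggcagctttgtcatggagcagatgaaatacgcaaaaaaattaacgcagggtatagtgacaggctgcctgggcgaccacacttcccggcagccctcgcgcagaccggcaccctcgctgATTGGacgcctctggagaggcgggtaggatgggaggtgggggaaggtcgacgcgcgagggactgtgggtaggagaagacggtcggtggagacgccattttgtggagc
Srsf7, chr17:80207256-80207555, minus strand: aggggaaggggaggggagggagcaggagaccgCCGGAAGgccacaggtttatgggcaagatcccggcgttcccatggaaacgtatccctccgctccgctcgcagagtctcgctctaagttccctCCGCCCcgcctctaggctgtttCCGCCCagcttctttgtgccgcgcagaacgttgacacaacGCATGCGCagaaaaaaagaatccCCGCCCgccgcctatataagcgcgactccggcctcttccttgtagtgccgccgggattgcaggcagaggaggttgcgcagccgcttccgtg
Snrpd2, chr7:19149588-19149887, plus strand: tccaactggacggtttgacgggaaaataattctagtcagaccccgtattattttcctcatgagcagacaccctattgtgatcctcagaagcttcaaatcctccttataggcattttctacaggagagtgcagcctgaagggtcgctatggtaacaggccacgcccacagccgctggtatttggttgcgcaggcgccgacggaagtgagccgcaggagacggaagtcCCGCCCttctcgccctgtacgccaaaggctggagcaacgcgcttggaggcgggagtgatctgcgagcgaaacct
Hnrnpk, chr13:58402068-58402367, minus strand: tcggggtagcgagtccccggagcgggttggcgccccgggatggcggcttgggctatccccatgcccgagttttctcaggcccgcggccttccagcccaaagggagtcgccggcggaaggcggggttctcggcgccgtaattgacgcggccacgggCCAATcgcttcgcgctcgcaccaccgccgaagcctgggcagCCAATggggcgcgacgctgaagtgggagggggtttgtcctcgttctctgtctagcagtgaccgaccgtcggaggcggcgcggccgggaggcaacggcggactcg

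The GC box occurred 5 times in the Prpf40b promoter, 3 times in that of Srsf7 and once in that of Snrpd2, and was found in 35.7% of 32851 mouse promoters of this length. CCAAT boxes stood in the Prpf40b, Rbm5 and Hnrnpk windows, against 37.4% of all promoters. The window of Srsf7 also held an ETS core, found in 8.86% of all promoters, and the NRF1 core, found in 2.71%. An E-box, found in 7.15% of all promoters, stood in the Prpf40b window, where 1 GC box begins directly after the base that follows it. The C/EBP consensus, of interest because the study's title names CEBPβ, was in none of the 5 windows. Across 152 promoters of 102 members in that table, 14.5% held it, against 10.8% of all promoters. Member promoters more often held a GC box (54.6%) or an ETS core (19.7%), and their median GC content was 59.7%, against 52.7% for all promoters. A match is a string of letters and does not show that a factor binds.

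The SR protein genes were mostly higher in the library labelled KO. All 11 were expressed, and 9 lay above 0 (81.8%, against 54.4% of all expressed genes), with a median difference of 0.51. On the higher side 4 were past 1.5-fold (36.4%, against 21.4% of all expressed genes), and on the lower side none (against 13.5%). Under each of the 3 other scalings 2 were past 1.5-fold, and under both sum scalings 7 lay above 0 and none was past 2-fold. Together they summed to 641.8 FPKM in KO-labelled islets, against 440.7 FPKM in WT. Srsf7 was at 106.6 FPKM in KO-labelled islets, against 49.8 FPKM in WT, 2.14-fold higher (2.04 to 2.25). Srsf5, an insulin-responsive SR protein in several cell types and the highest of all members in both libraries, was at 203 FPKM in KO-labelled islets, against 133 FPKM in WT. Its ratio was 1.53 (1.46 to 1.59), and it supplied 31.6% of the SR sum in KO-labelled islets, against 30.2% in the WT library. Srsf5 thus held a similar part of the family sum in both libraries. Srsf11, a regulator of very short exons in neurons, was at 42.5 against 25.2 FPKM, a ratio of 1.69 (1.61 to 1.77). Srsf6, a regulator of exon choice in human β-cells, was at 78.5 FPKM in KO-labelled islets, against 54.0 FPKM in WT, a ratio of 1.46. Srsf4 and Srsf2 differed by 0.59 and 0.51 on the log2 scale, and both share exon sequence with other genes, over 43.0% and 25.3% of their annotated exon bases. Those transcripts can take part of their reads, since strand use in counting is not stated.

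Other SR genes differed little on the deposited values. Srsf1, the founding SR protein, was at 45.9 FPKM in KO-labelled islets, against 38.1 FPKM in WT, a ratio of 1.20 (1.15 to 1.26). Srsf3, the closest relative of Srsf7, was at 44.5 against 40.6 FPKM, a ratio of 1.09 (1.03 to 1.17). Within each library, which removes any difference in scaling, Srsf7 stood at 2.40 times the Srsf3 level in KO-labelled islets, against 1.23 times in the WT library. That within-library ratio changed 1.95-fold (1.80 to 2.12). Srsf9 was the lowest of the family at 28.1 against 31.995 FPKM (ratio 0.877, 0.741 to 1.04), an interval that included 1. True reads can be a multiple of those used, so this interval can be too wide. With a trend of the log2 ratio with transcript GC content and length taken out, Srsf9 lay at -0.75, past 1.5-fold on the lower side. In that setting Srsf1 lay at 0.80, past 1.5-fold on the higher side, Srsf3 at 0.48 and Srsf4 at 0.24. Of the 11 SR genes 5 were then past 1.5-fold on the higher side, 2 of them past 2-fold, and 1 on the lower. The intervals of Srsf10, a splicing repressor when dephosphorylated, at 11.4 against 12.2 FPKM (0.861 to 1.01), and of Srsf12 at 1.44 against 1.35 FPKM (0.581 to 1.95) also included 1.

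**Figure D2:**
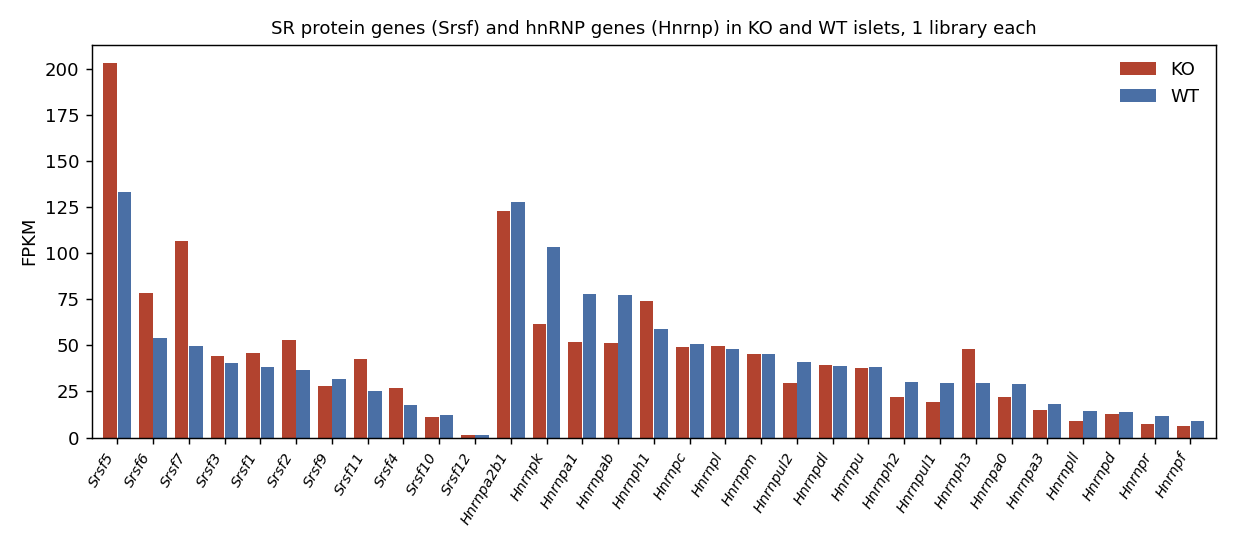
FPKM of the 11 SR genes and then the 20 expressed hnRNP genes, each family ordered by its WT level, in the library labelled KO (left bar of each pair) and the WT library (right bar). Srsf5 (203 and 133 FPKM) and Srsf7 (106.6 and 49.8 FPKM) stand higher in the library labelled KO, and Hnrnpk (61.6 and 103.2 FPKM) stands lower.

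Genes for hnRNP proteins were mostly lower in the library labelled KO. Among the 20 expressed, 16 lay below 0 and 4 above (20%, against 54.4% of all expressed genes), with a median of -0.33. At least 1.5-fold lower were 5 (25%, against 13.5% of all expressed genes), and 1 was 1.5-fold higher (5%, against 21.4%). Under both sum scalings 18 lay below 0, 8 were past 1.5-fold on the lower side and none on the higher. Once a trend of the log2 ratio with transcript GC content and length was taken out, 10 lay below 0 and 2 were at least 1.5-fold lower, Hnrnpul1 at -0.69 and Hnrnpa0 at -0.64, while Hnrnpk lay at -0.39 and Hnrnpll at -0.32. The family summed to 774.2 FPKM in KO-labelled islets, against 893.3 FPKM in WT, or 24.5% of the FPKM of all members in KO-labelled islets, against 31.2% in WT. Hnrnpk, a poly(C)-binding protein, was at 61.6 FPKM in KO-labelled islets, against 103.2 FPKM in WT, 1.67-fold lower (1.604 to 1.75). Hnrnpll, best known for its role in CD45 exon choice in T cells, was at 9.02 against 14.4 FPKM, 1.59-fold lower (1.34 to 1.90). Hnrnpul1, a chromatin-associated relative of Hnrnpu, was at 19.3 against 29.8 FPKM, 1.55-fold lower (1.41 to 1.70). Hnrnpa1, the prototype antagonist of SR proteins, was at 52.0 against 78.0 FPKM, 1.501-fold lower (1.41 to 1.599). It has many processed pseudogenes, so its reads are less certain. Hnrnpab and Hnrnpr, at -0.59 each, were past 1.5-fold together with Hnrnpk, Hnrnpll and Hnrnpul1, and Hnrnpab shares 29.1% of its exon bases with other genes.

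Several abundant hnRNP genes stood at nearly the same level. Hnrnpa2b1, which binds m6A-marked RNA and is the highest hnRNP gene in both libraries, was at 123 FPKM in KO-labelled islets, against 128 FPKM in WT (ratio 0.964, 0.936 to 0.994). Hnrnpu, Hnrnpm, Hnrnpl, Hnrnpdl and Hnrnpc all lay between -0.05 and 0.05. Of the 4 family members above WT, Hnrnpl and Hnrnpdl differed by 0.05 or less, and the paralogs Hnrnph3 and Hnrnph1 by more. Hnrnph3 was at 47.8 against 29.4 FPKM (ratio 1.63, 1.37 to 1.94), and Hnrnph1 was at 74.2 against 59.0 FPKM (ratio 1.26, 1.21 to 1.31). Both bind G-rich RNA, as do their relatives Hnrnph2 and Hnrnpf, which lay at -0.43 and -0.48. The level of Hnrnph3 was 7.76 times that of Hnrnpf in KO-labelled islets, against 3.28 times in the WT library, a 2.37-fold change (1.95 to 2.88). The pseudogene Hnrnpa1l2-ps2 was listed at 0 in KO-labelled islets, against at 0.135 FPKM in WT.

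The difference between the SR median and the hnRNP median was 0.84 on the log2 scale, and between 0.83 and 0.84 under the 3 other scalings. A scaling multiplies a whole library by 1 factor, which nearly cancels from such a difference, so that agreement is no check of it. After a trend of the log2 ratio with GC content and transcript length was removed, it was 0.48. In that setting the SR median was 0.48, with 10 of 11 genes above 0, and the hnRNP median was -0.003, with 10 of 20 above 0. With the trend removed, the hnRNP median was thus near 0 and the SR median was not. Median GC content of the transcripts was 44.6% for SR genes, 45.3% for hnRNP genes and 50.5% for all expressed genes. Across the 113 members the difference correlated with log2 transcript length at a Pearson r of -0.33 and a Spearman rho of -0.28, and with GC content at 0.070 and 0.028. Across 12376 expressed genes the values were -0.36 and -0.39 for length and 0.40 and 0.42 for GC content. These are descriptions across genes of 1 pair of libraries, and genes are not independent replicates.

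**Figure D3:**
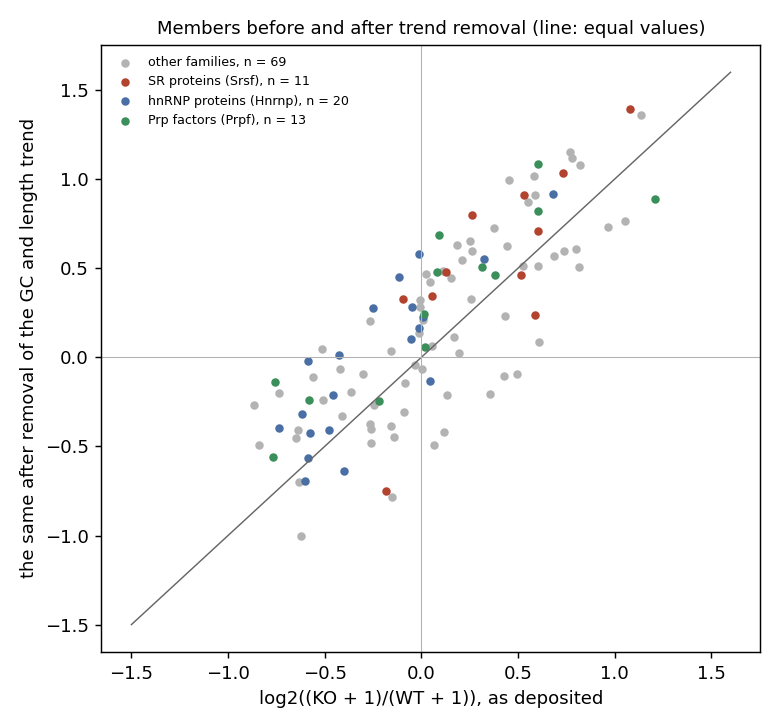
Log2 difference of each of 113 expressed members as deposited (horizontal) and with the GC and length trend taken out (vertical), with the line of equal values. SR genes stay mostly above 0, with a median of 0.48 after removal, hnRNP genes centre on -0.003, and Prp factors shift to a median of 0.46.

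Proteins of the snRNPs were split. The median of the 11 expressed Snrp genes was 0.17. Past 1.5-fold were 5 on the higher side (45.5%, against 21.4% of all expressed genes) and none on the lower (against 13.5%). The higher count was 3 under both sum scalings. With the trend removed it was also 3, and 1 gene, Snrpb at -0.79, was past 1.5-fold on the lower side. The Sm proteins form a ring on the snRNA. Of them, Snrpd2 was at 78.1 FPKM in KO-labelled islets, against 37.1 FPKM in WT, 2.10-fold higher (1.88 to 2.35). Snrpe was at 35.0 against 20.5 FPKM, a ratio of 1.70 (1.40 to 2.06), Snrpg at 60.6 against 37.3 FPKM (1.38 to 1.91) and Snrpd1 at 33.0 against 21.4 FPKM (1.19 to 1.9999). The other Sm genes did not share that difference. Snrpd3 was at 54.4 against 60.9 FPKM with a ratio from 0.756 to 1.06, Snrpb was at 35.9 against 40.0 FPKM, and Snrpf was at 31.7 against 28.1 FPKM with 85.4% of its exon bases shared with other genes. Genes of single-snRNP proteins also differed among themselves. Snrpa1, the U2 protein A′, was at 17.2 against 8.29 FPKM, a ratio of 2.07 (1.599 to 2.69), whereas its U2 partner Snrpb2 was at 13.6 against 13.7 FPKM (0.780 to 1.27). The U1 proteins Snrpa and Snrpc lay at 0.07 and -0.26. Snrpn, an imprinted gene of neurons, was at 0.050 FPKM in KO-labelled islets, against 0.026 FPKM in WT, on 3 and 2 reads or a multiple of them. Small snRNP genes have many processed pseudogenes, so their single values are less certain. After removal of the GC and length trend Snrpd2 lay at 0.77 and was no longer past 2-fold.

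Recognition of the 3′ splice site and branch point depends on U2AF and on the SF3a and SF3b complexes of the U2 snRNP. All 3 U2af genes lay above 0. U2af1, the subunit that reads the AG at the end of the intron, was at 54.9 FPKM in KO-labelled islets, against 35.6 FPKM in WT, a ratio of 1.54 (1.39 to 1.71). Its partner U2af2, which binds the polypyrimidine tract, was at 27.5 against 24.98 FPKM, a ratio of 1.10 (1.04 to 1.16). U2af1l4, a relative of U2af1, was at 34.7 against 26.9 FPKM (0.981 to 1.70), and 66.1% of its exon bases are shared with Psenen and another gene. After trend removal the 3 differences were 0.09, -0.21 and -0.20, and that of U2af2 was also below 0 with each library scaled to a sum of 1000000 (-0.007).

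Of the 9 SF3 subunits, 6 lay below 0 and 3 above (33.3%, against 54.4% of all expressed genes), the median being -0.09. None exceeded 1.5-fold on the higher side (against 21.4% of all expressed genes), and 2 did on the lower (22.2%, against 13.5%). Sf3b1, the branch-point clamp that is recurrently mutated in blood cancers, was nonetheless at 47.6 FPKM in KO-labelled islets, against 34.5 FPKM in WT, a ratio of 1.38 (1.33 to 1.44). Sf3b3, its scaffold partner, was at 15.7 against 24.9995 FPKM, 1.59-fold lower (1.48 to 1.72). Sf3b4, which contacts RNA upstream of the branch point, was at 11.6 against 18.4 FPKM, 1.58-fold lower (1.38 to 1.83). Sf3b2, the highest subunit in both libraries, was at 59.1 against 71.1 FPKM, and Sf3b6, which sits near the branch-point adenosine, was at 53.6 against 54.9 FPKM with a ratio from 0.893 to 1.07. In the SF3a complex, Sf3a2 lay at 0.43, Sf3a3 at -0.09 and Sf3a1 at -0.30. Subunits of complexes in which they occur together were thus not shifted together. After trend removal Sf3b1 was at 0.998 and Sf3b4 at -1.002, on opposite sides of 0 as before, and Sf3a2 was at -0.10.

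The Prpf family holds proteins of the U4/U6.U5 tri-snRNP and of other stages. Its 13 genes had a median of 0.08 (-0.052 with each library scaled to a sum of 1000000, -0.054 with equal sums). Past 1.5-fold were 3 genes on the higher side (23.1%, against 21.4% of all expressed genes) and 2 on the lower side (15.4%, against 13.5%). Under each of the 3 other scalings these counts were 1 and 3, and with the trend removed 4 and 0. Prpf8, the large U5 protein at the catalytic centre, was at 26.5 FPKM in KO-labelled islets, against 45.9 FPKM in WT, 1.73-fold lower (1.65 to 1.81). The tri-snRNP proteins Prpf3, Prpf4, Prpf31 and Prpf6 lay at 0.31, 0.08, 0.02 and -0.22. Prpf19, the ubiquitin ligase of the Prp19 complex, was at 20.6 against 20.3 FPKM (0.952 to 1.07), and the second-step factor Prpf18 was at 9.90 against 15.3 FPKM, 1.55-fold lower (1.39 to 1.72). On the log2 scale used for the limits Prpf18 lay at -0.582, just short of 1.5-fold, and is not among the 2 lower genes counted above. Prpf38b was at 26.9 against 17.4 FPKM, a ratio of 1.55 (1.45 to 1.66), and Prpf39 at 11.3 against 7.14 FPKM, a ratio of 1.59 (1.46 to 1.73). Prpf40b was at 26.7 FPKM in KO-labelled islets, against 11.0 FPKM in WT, 2.43-fold higher (2.23 to 2.65). Its transcript has a GC content of 58.3%, against a median of 50.5% for all expressed genes, and after trend removal it lay at 0.89, no longer past 2-fold.

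The Rbm symbols share an RNA-recognition motif rather than 1 role. Of 38 genes 33 were expressed, with a median of 0.11 (-0.039 with equal sums without the 20 highest genes). Past 1.5-fold were 5 on the higher side (15.2%, against 21.4% of all expressed genes) and 3 on the lower side (9.09%, against 13.5%). These counts were 4 and 5 under both sum scalings, and 11 and 1 with the trend removed. Rbm5 was at 65.8 FPKM in KO-labelled islets, against 29.4 FPKM in WT, 2.24-fold higher (2.07 to 2.43). Its relatives were higher too. Rbm10 on the X chromosome was at 42.7 against 24.1 FPKM (ratio 1.77, 1.66 to 1.88). Rbm6, beside Rbm5 on chromosome 9, was at 17.7 against 11.4 FPKM (ratio 1.55, 1.44 to 1.66). In human cells these proteins act on exon skipping, including in apoptosis genes. Rbm39, a U2AF-related coactivator and the highest Rbm gene in both libraries, was at 73.3 against 49.6 FPKM, a ratio of 1.48 (1.42 to 1.53). Rbm25, which binds U1-associated complexes, lay at 0.58, and Rbm28, a nucleolar protein, at 0.82 (18.1 against 9.79 FPKM). Rbm12b1 lay at 0.78, but it has a close copy in Rbm12b2, so its reads are less certain.

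On the lower side, Rbm47, an epithelial partner of the C-to-U editing enzyme Apobec1, was at 4.52 FPKM in KO-labelled islets, against 8.90 FPKM in WT, 1.97-fold lower (1.65 to 2.35). Rbm27 was at 4.52 against 8.20 FPKM, 1.81-fold lower (1.62 to 2.03). Rbm15b, a subunit of the m6A writer complex, was at 6.36 against 10.4 FPKM, 1.64-fold lower (1.48 to 1.81), while its paralog Rbm15 was at 3.60 against 3.43 FPKM (0.853 to 1.29). With the trend removed Rbm15b lay at -0.70, and Rbm47 at -0.49 and Rbm27 at -0.20 were no longer past 1.5-fold. Rbm8a, a core protein of the exon junction complex, differed by 0.16 and the cold-inducible Rbm3 by 0.38. Among the 5 Rbm genes under 1 FPKM in both libraries, Rbm20, a splicing regulator of titin in heart, was at 0.726 against 0.326 FPKM, and Rbm44 and Rbm46, known from germ cells, were at no more than 0.090 FPKM.

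Regulators with cell-type-biased expression differed from gene to gene within their families. In the Celf family, Celf3, a member best known from neurons, was the highest in both libraries, and it stood at 57.1 FPKM in KO-labelled islets, against 32.1 FPKM in WT, a ratio of 1.78 (1.72 to 1.85). Celf1, the widely expressed member, was at 10.7 against 16.3 FPKM, 1.52-fold lower (1.43 to 1.62). The Celf3 level was therefore 5.34 times that of Celf1 in KO-labelled islets, against 1.97 times in the WT library. With the GC and length trend removed Celf3 lay at 0.51 and Celf1 at -0.11, closer together than the deposited 0.81 and -0.56, and neither was past 1.5-fold. Celf4, also neuronal, was at 15.1 against 10.8 FPKM (ratio 1.39), Celf6 at 4.55 against 5.12 FPKM (0.648 to 1.21), Celf5 at 0.596 against 0.378 FPKM and Celf2 at 0.368 against 0.401 FPKM. The 6 markers of neurons and glia, among them the member Rbfox3, summed to 74.1 FPKM in KO-labelled islets, against 57.3 FPKM in WT, and their part in these values was not tested. Of the RNA-stabilising Elavl proteins, the ubiquitous Elavl1 was at 11.1 against 10.9 FPKM (0.936 to 1.10). The neuronal Elavl4, known in β-cells as a regulator of insulin translation, was at 6.66 against 8.21 FPKM (0.660 to 0.995). Its log2 difference was -0.27 as deposited and 0.21 with the trend removed. Elavl3 was at 2.19 against 1.22 FPKM, a ratio of 1.80 (1.41 to 2.30), and Elavl2 was at 0.417 against 0.314 FPKM. Rbfox2 was the single Rbfox gene above 1 FPKM, at 3.58 against 3.55 FPKM (0.935 to 1.09), and Rbfox1 and the neuronal marker Rbfox3 were at 0.704 and 0.185 FPKM in KO-labelled islets, against 0.547 and 0.118 FPKM in WT.

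**Figure D4:**
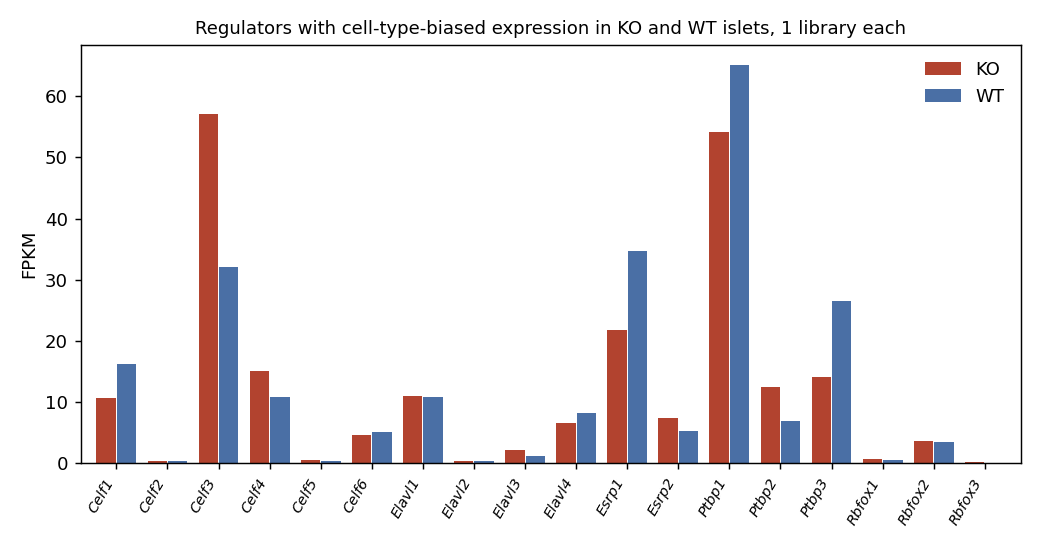
FPKM of all members of the Celf, Elavl, Esrp, Ptbp and Rbfox families in the library labelled KO (left bar of each pair) and the WT library (right bar). Celf3 and Ptbp2 stand higher, and Celf1, Esrp1 and Ptbp3 lower, in the library labelled KO, while Rbfox2 (3.58 and 3.55 FPKM) is level.

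Epithelial and polypyrimidine-tract regulators had members on both sides. Esrp1, the epithelial splicing regulator, was at 21.7 FPKM in KO-labelled islets, against 34.7 FPKM in WT, 1.596-fold lower (1.49 to 1.71). Its paralog Esrp2 was at 7.47 against 5.27 FPKM, a ratio of 1.42 (1.24 to 1.63). The Esrp2 level was 0.344 times that of Esrp1 in KO-labelled islets, against 0.152 times in the WT library. Acinar cells are epithelial as well, and the acinar sums given above, 89.9 and 1649 FPKM, stand beside Esrp1 and Rbm47, where their part was not tested. Ptbp1, the general repressor of neuronal exons that also stabilises insulin mRNA, was at 54.1 against 65.2 FPKM, 1.20-fold lower (1.12 to 1.29). Ptbp2, its neuronal paralog, was at 12.5 against 6.91 FPKM, a ratio of 1.80 (1.59 to 2.04). Ptbp3 was at 14.1 against 26.5 FPKM, 1.88-fold lower (1.77 to 1.996), the lowest log2 difference of all expressed members at -0.87. The Ptbp2 level relative to Ptbp1 was 0.230 in KO-labelled islets, against 0.106 in the WT library, a 2.17-fold change (1.88 to 2.51). After trend removal Ptbp2 lay at 1.15, past 2-fold, and Ptbp3 at -0.27. In that setting Esrp1 lay at -0.45 and Esrp2 at 0.23, neither past 1.5-fold.

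Genes outside the symbol families came from 7 lists for splicing, nonsense-mediated decay and other nuclear RNA-binding proteins. They were 147 genes in all, of which 145 were expressed. Of these 12 were at least 2-fold higher (8.28%, against 6.98% of all expressed genes) and 3 were at least 2-fold lower (2.07%, against 3.88%). These lists, like the members, were chosen with earlier results known, and Clk3, Clk4, Srpk1, Srpk2 and Srpk3 are named after their values were seen. Of the 9 kinases that phosphorylate SR proteins or related factors, 8 lay above 0 (88.9%, against 54.4% of all expressed genes). On the higher side 4 exceeded 2-fold (44.4%, against 6.98%). The list median was 0.99. Clk1, which phosphorylates SR proteins in the nucleus, was at 162 FPKM in KO-labelled islets, against 51.2 FPKM in WT, 3.16-fold higher (2.92 to 3.42). Clk2 was at 13.6 against 3.34 FPKM, 4.07-fold higher (3.38 to 4.94), and Clk3 and Clk4 lay at 1.11 and 0.99. Srpk3, a muscle kinase, was at 1.76 against 0.155 FPKM and lay at 1.26. It is 1 of the 4 past 2-fold and passed the floor of 1 FPKM only through the library labelled KO. The general cytoplasmic kinases Srpk1 and Srpk2 lay at 0.28 and 0.14, and Dyrk1a, a kinase studied for β-cell replication, lay at -0.17. With a pseudocount of 5 FPKM the kinase median was 0.39 and 2 exceeded 2-fold. A floor of 5 FPKM, which leaves Srpk3 out, gave a median of 0.64 over 8 kinases, with 7 above 0 and 3 past 2-fold. Under both sum scalings 3 exceeded 2-fold, and with equal sums 6 lay above 0. With the GC and length trend removed the median was 0.71 and 3 exceeded 2-fold, with Clk3 at 0.71 and Srpk3 at 0.97 no longer past it.

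**Figure D5:**
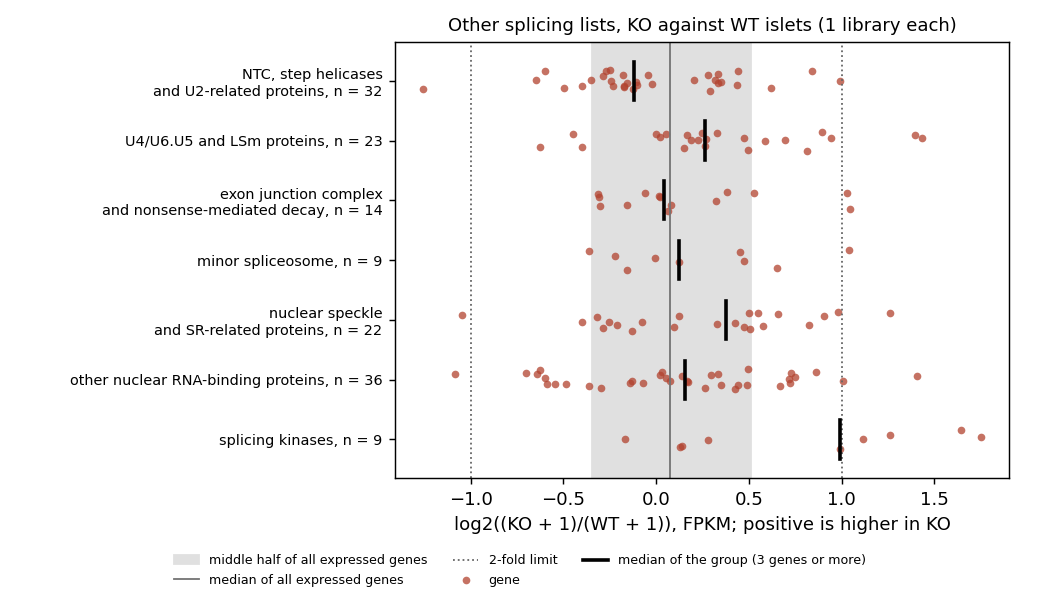
Log2 difference between the library labelled KO and the WT library for each expressed gene (points) of 7 lists outside the symbol families. The lists cover splicing, nonsense-mediated decay and other nuclear RNA-binding proteins. Black bars are list medians, and the grey band spans the quartiles of all expressed genes. The splicing kinases have the highest median, 0.99, which is 0.71 with the GC and length trend removed. The list of Prp19-complex and helicase genes has the lowest, -0.12, which turns to 0.024 with that trend removed.

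Nuclear speckle and SR-related genes had a median of 0.38, with 14 of 22 above 0 (63.6%, against 54.4% of all expressed genes). Arglu1 was at 51.1 FPKM in KO-labelled islets, against 20.7 FPKM in WT, 2.46-fold higher (2.30 to 2.64), and Acin1, a protein of the exon junction periphery, was at 72.8 against 36.4 FPKM. Scaf11 was at 7.98 against 17.6 FPKM, 2.20-fold lower (1.80 to 2.71), and lay at -0.65 with the trend removed, no longer past 2-fold. In the U4/U6.U5 and LSm list, which also holds the U1 gene Snrnp70, 19 of 23 genes lay above 0 (82.6%, against 54.4% of all expressed genes). Their median was 0.26, which was 0.13 with the trend removed, where none was past 2-fold. Snrnp70, the U1 protein that contacts SR proteins, was at 151 against 56.7 FPKM, 2.66-fold higher (2.54 to 2.79), and Lsm7 of the U6 ring was at 32.4 against 11.4 FPKM, 2.85-fold higher (2.31 to 3.53), and with the trend removed they lay at 0.89 and 0.88. The U5 helicase Snrnp200, a partner of Prpf8, was at 13.5 against 21.4 FPKM, 1.58-fold lower (1.44 to 1.74).

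The Prp19 complex, step helicases and U2-related genes had a median of -0.12 (0.024 with the trend removed). Of 32 genes, 20 lay below 0 and 12 above (37.5%, against 54.4% of all expressed genes). Aqr, an intron-binding helicase, was at 6.28 FPKM in KO-labelled islets, against 16.4 FPKM in WT, 2.61-fold lower (2.35 to 2.90) and at -0.93 with the trend removed, and the helicase Dhx15 was at 16.5 against 26.5 FPKM. Dhx16 and Sugp1 lay at 0.99 and 0.84. For the exon junction complex and nonsense-mediated decay the median was 0.04 (below 0 under all 3 other scalings, -0.090 at the lowest), with Smg9 (9.497 against 4.09 FPKM) and Upf3a (13.7 against 6.21 FPKM) past 2-fold and Eif4a3 and Smg6 at -0.32 and -0.31. Neither Smg9 nor Upf3a was past 2-fold under any of the 3 other scalings, with a pseudocount of 5 FPKM or with the trend removed (0.56 and 0.84). Minor-spliceosome genes had a median of 0.12 (-0.012 with the trend removed), with the minor snRNP protein Snrnp48 at 11.4 against 5.05 FPKM (ratio 2.26, 1.98 to 2.59, not past 2-fold under the 3 other scalings), Zcrb1 at 0.65, Pdcd7 at -0.22 and Zrsr1 at -0.36. Of 36 expressed genes for other nuclear RNA-binding proteins, 23 lay above 0 (63.9%, against 54.4% of all expressed genes), with a median of 0.16. The scaffold-attachment protein Safb2 was at 52.2 against 19.0 FPKM, 2.74-fold higher (2.60 to 2.90), and the cold-inducible Cirbp was at 57.5 against 28.0 FPKM, past 2-fold at 1.01 but at 0.62 with the trend removed. Under each of the 3 other scalings 1 gene of the list was past 2-fold on the higher side. Khdrbs3, a STAR-family splicing regulator, was at 11.4 against 25.3 FPKM, 2.22-fold lower (1.99 to 2.48), and Fubp1 lay at -0.70.

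Annotated isoforms were compared because gene totals cannot separate productive from unproductive transcripts. In GENCODE M21, 50 of the 113 expressed members (44.2%) have a transcript annotated for nonsense-mediated decay, against 28.5% of all expressed coding genes. Members with such a transcript had a median difference of 0.13, with 33 of 50 above 0, and those without had a median of -0.011, with 29 of 63 above 0. Over all expressed coding genes the medians were 0.12 with such a transcript and 0.056 without. Transcripts with a retained intron are annotated for 81 members (71.7%), against 59.0% of all expressed coding genes. Members with one had a median of 0.054, and those without had -0.088. The members with a decay transcript were also more abundant, at a median of 24.2 FPKM over both libraries, against 14.9 FPKM for those without. How much of a gene total came from these isoforms cannot be read from gene-level values.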

How the data were processed

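RNA was sequenced from mouse islets, 1 library labelled KO and 1 labelled WT, from total RNA with a SMARTER kit for mRNA, as the labels' protocols state. The authors deposited FPKM values per gene, 1 column per library. The submitters' processing notes name mm10 and GRCm38 as genome builds. Aligner, counter, annotation, strand setting and filters: not given in the sources used here. FPKM was used without further scaling. Members were found by symbol pattern, and the members and lists were chosen with earlier results of these data known. Named genes were Cgas, every member past 2-fold, the highest and up to 3 widest in each direction of each family, all members of the small families, and up to 2 widest in each direction of the other lists; further members, the paralog pairs, the isoform classes and the motifs were chosen after values were seen. Values of 1 member that the rule names are not reported here.

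Library totals were found by a scan for totals that make gene lengths whole. With them 17178 of 17245 genes (99.6%) gave whole reads within 1e-05 of a read plus a rounding term, for lengths of 60 to 30000. The smallest such reads, which sum to 91.3% and 90.1% of the KO and WT totals, gave the intervals. True reads are these or a multiple, so an interval can be too wide; 2 members had none. PCR copies are not independent molecules. No count test was run. Calls use a pseudocount of 1 FPKM, a floor of 1 FPKM in either library, and limits of 2-fold and 1.5-fold. The procedure was also run on simulated data built from the WT values and the recovered lengths, and the outcome is not given here. Transcript GC content and length were those of the longest coding GENCODE M21 transcript (12376 of 12428 expressed genes), and a lowess trend (fraction 0.3, 3 iterations) was removed, GC content first and log2 length second. Software was Python 3.11.15, NumPy 2.4.6, pandas 2.3.3, SciPy 1.17.1, statsmodels 0.14.6 and Matplotlib 3.10.9.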

Additional observations from a re-analysis of the deposited data

How the results depend on the processing

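No paired analysis was possible because each genotype has 1 library, and no replicate could be left out. Alternatives were pseudocounts of 0.1 and 5 FPKM, no floor and a floor of 5 FPKM, 3 scalings and removal of a lowess trend with GC content and transcript length. The count of members at least 2-fold higher, 4, was 2 with a pseudocount of 5 FPKM, 2 with each library scaled to a sum of 1000000, 1 with equal sums without the 20 highest genes and 8 with the trend removed. The count at least 2-fold lower, 0, was 2, 1 and 1 under the sum scaling, the equal sums and the trend removal. At 1.5-fold the 21 higher members were 13 with a pseudocount of 5 FPKM and 12 under either sum scaling, and the 14 lower members were 21 under either sum scaling, 3 with a pseudocount of 5 FPKM and 6 with the trend removed. Under both sum scalings lower members thus outnumbered higher ones, as they did with the median ratio, 17 against 14. The sum scaling and the equal sums moved the median of all genes by -0.12 and -0.14. Of all genes past 2-fold, 64.3% were higher, against 46.5% and 43.7% under these scalings and 57.0% with the median ratio.

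Relative to the median of all expressed genes, medians moved by under 0.1 under every scaling, for the members as a whole and the 6 families with 9 or more genes. A scaling multiplies a whole library by 1 factor, which nearly cancels from a difference of medians, so this was close to fixed in advance. With the trend removed, the members' relative median was 0.13 in place of -0.055, that of hnRNP genes -0.077 in place of -0.40, that of Snrp genes 0.21 in place of 0.090 and that of Prpf genes 0.39 in place of 0.0058. With means in place of medians, the SR value was 0.30 in place of 0.44 and the Snrp value 0.26. The SR minus hnRNP difference of 0.84 was 0.74 with a pseudocount of 5 FPKM and 0.48 with the trend removed. The causes were not tested. Of 81 named expressed genes, 9 changed sign with the trend removed, 4 under each sum scaling and 3 with the median ratio. Many more left their own counting interval, 68 with the trend removed, 50 with sums of 1000000 and 45 with equal sums. With a pseudocount of 5 FPKM 26 did so, and with the median ratio 2. The bracketed intervals therefore do not cover the choice of processing. With 14537660 and 19097001 reads, ratios near 1 of genes with few reads were not resolved.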
